A study of Mus musculus with 20 samples.

Results

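The genes described here encode 10 acute phase proteins of the liver, namely the serum amyloid A proteins Saa1, Saa2 and Saa3, the orosomucoids Orm1, Orm2 and Orm3, the lipocalin Lcn2, haptoglobin (Hp), hemopexin (Hpx) and Itih4. They were chosen by gene symbol, 10 of 53028 genes in the table, because a SNORA73 LNA mouse, mouse 10, had been seen to express them at a high level. Levels of mouse 10 are therefore given as a description, with no test, and tests were run over the other mice or on the ratio of polysome to total RNA, which did not enter the choice. The study asked what the snoRNA SNORA73 does in liver, and knocked it down with an LNA, an antisense oligonucleotide stabilized by locked nucleic acids.

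Livers came from male C57BL/6J mice fed chow. The control group had received an LNA against GFP, a sequence the mouse does not carry, so both groups had been injected with an oligonucleotide. Each LNA was injected into the peritoneum at 3 mg/kg, 3 times, every other day, and tissue was taken 2 days after the last dose. The series text gives the age at injection as 8 weeks, whereas the methods for liver polysomes give 10 weeks. The GFP LNA group was mice 1, 2, 3, 8 and 9, and the SNORA73 LNA group was mice 4, 6, 10, 11 and 12, each with a library of total RNA (transcriptome) and a library of RNA from polysome fractions (translatome), 20 libraries in all. The sample labels spell the knocked-down snoRNA Snora37. The study kept 4 mice per group after leaving out an unnamed mouse from each, and fits without mice 9 and 10, the nearest match found in earlier work on these data, are given beside those without mouse 10.

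The acute phase response is the change in plasma proteins that follows infection or injury. Cytokines of the IL-6 family act on hepatocytes through the receptor chain gp130, JAK kinases and STAT3, and IL-1 and TNF act through NF-kB, with C/EBP factors joining both at many promoters. Hepatocytes then make more of the positive acute phase proteins, such as serum amyloid A, and less of the negative ones, such as albumin and transthyretin. Serum amyloid A proteins travel on high-density lipoprotein, orosomucoids bind small lipophilic molecules, lipocalin 2 binds bacterial siderophores, haptoglobin captures free hemoglobin, hemopexin captures free heme, and Itih4 belongs to the inter-alpha-trypsin inhibitor heavy chain family.

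In the GRCm38.p6 assembly, Saa3 (chromosome 7, 46711998 to 46719615), Saa1 (46740497 to 46743181) and Saa2 (46751833 to 46754313) lie together, as do Orm1 (chromosome 4, 63344556 to 63348163), Orm3 (63356069 to 63359506) and Orm2 (63362449 to 63365877). Lcn2 lies on chromosome 2 (32384637 to 32387739), Hpx on chromosome 7 (105591611 to 105600116), Hp on chromosome 8 (109575128 to 109579172) and Itih4 on chromosome 14 (30886476 to 30901986). RefSeq promoter windows of 300 bases, from 250 before the start to 50 after it, were matched for 8 of the 10 genes, those of Orm1 and Hp being not used here. The 5 windows printed 5′ to 3′ belong to the genes that stood highest over the other mice in mouse 10, and the capitals mark a C/EBP motif, TTNNGCAA read on either strand. They are Saa1 (chr7:46742931-46743230, minus strand), Saa2 (chr7:46751583-46751882, plus strand), Saa3 (chr7:46715627-46715926, minus strand), Lcn2 (chr2:32387690-32387989, minus strand) and Orm2 (chr4:63362199-63362498, plus strand), all in GRCm38.p6.
Saa1: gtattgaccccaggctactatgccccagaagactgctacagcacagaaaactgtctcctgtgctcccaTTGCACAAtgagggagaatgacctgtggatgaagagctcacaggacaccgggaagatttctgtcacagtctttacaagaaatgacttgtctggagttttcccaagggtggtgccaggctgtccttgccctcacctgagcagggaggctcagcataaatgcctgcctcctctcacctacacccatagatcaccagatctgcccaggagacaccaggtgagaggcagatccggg
Saa2: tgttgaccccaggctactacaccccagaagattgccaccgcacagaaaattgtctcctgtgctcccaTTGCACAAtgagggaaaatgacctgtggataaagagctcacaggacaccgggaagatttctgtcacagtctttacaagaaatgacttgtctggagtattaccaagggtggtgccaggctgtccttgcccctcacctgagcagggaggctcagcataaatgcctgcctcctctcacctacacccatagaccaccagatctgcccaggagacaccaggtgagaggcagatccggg
Saa3: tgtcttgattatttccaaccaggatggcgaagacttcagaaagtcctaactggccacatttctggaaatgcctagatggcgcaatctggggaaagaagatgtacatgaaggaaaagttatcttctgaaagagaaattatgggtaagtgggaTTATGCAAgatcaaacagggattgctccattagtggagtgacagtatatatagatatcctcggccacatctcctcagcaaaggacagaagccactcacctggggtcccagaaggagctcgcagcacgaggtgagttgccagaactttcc
Lcn2: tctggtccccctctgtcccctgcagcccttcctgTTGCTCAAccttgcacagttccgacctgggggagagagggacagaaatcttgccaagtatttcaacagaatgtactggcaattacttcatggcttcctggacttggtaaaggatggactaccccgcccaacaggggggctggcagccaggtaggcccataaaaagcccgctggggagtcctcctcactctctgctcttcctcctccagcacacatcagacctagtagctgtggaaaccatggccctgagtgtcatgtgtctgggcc
Orm2: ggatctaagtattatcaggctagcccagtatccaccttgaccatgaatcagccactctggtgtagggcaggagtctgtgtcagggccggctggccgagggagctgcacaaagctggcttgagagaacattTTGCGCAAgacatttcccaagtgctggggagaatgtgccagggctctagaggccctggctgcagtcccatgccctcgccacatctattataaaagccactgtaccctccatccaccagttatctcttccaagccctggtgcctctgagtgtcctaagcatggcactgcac
The window of Saa3 lies inside the span of its gene, and the start that the Orm3 window is set on lies inside the span of Orm3. Among the 8 windows, 7 held the C/EBP motif, against 10.8% of 32817 windows of all genes, and 1, that of Itih4, held the STAT motif TTCNNNGAA, against 8.29%. None of the 8 held the NF-kB motif of 10 letters on either strand, which 1.63% of all windows held. The motifs did not overlap each other in these windows. The C/EBP motif began 182 bases before the start in Saa1, 183 in Saa2, 99 in Saa3, 216 in Lcn2, 120 in Orm2 and 121 in Orm3. The windows are not independent, since 287 of 299 aligned bases were identical between Saa1 and Saa2 (96%) and 263 of 295 between Orm2 and Orm3 (89.2%). A motif match is a match of letters only and was not tested as a binding site.

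Libraries held 20005389 to 42023390 counts in total RNA and 14852951 to 33824659 in polysome RNA, and no pair of libraries was identical. The knockdown could not be read, as Snora73a had at most 2 and Snora73b at most 4 counts in any library of this polyadenylated RNA. All 8 hepatocyte markers passed the filter in both RNAs, with a summed level of 35768 to 61429 CPM in total RNA, where CPM is the count scaled to a common library size with the trimmed mean of M values (TMM). Mouse 10 lay below all other 9 mice for 19% of genes in total RNA and 14.1% in polysome RNA. Its share of mitochondrially encoded counts in total RNA was 13.2%, within the 11.2% to 15.4% of the other mice. In bulk tissue, a change in the number of cells of a type and a change in RNA per cell cannot be told apart.

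All 10 genes were higher in the liver of SNORA73 LNA mouse 10 than the median of the other 9 mice, by 2.23-fold to 357-fold in total RNA, and polysome RNA gave 2.28-fold to 326-fold. Mouse 10 was the highest of the 10 mice for 9 of 10 genes in total RNA, the exception being Orm3, and for 10 of 10 in polysome RNA, where it was the highest for 19.2% and 11.5% of all genes. These values chose the genes. Saa2, Lcn2, Saa1, Saa3 and Orm2 differed most, and Hp, Hpx and Itih4 least.

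**Figure D1:**
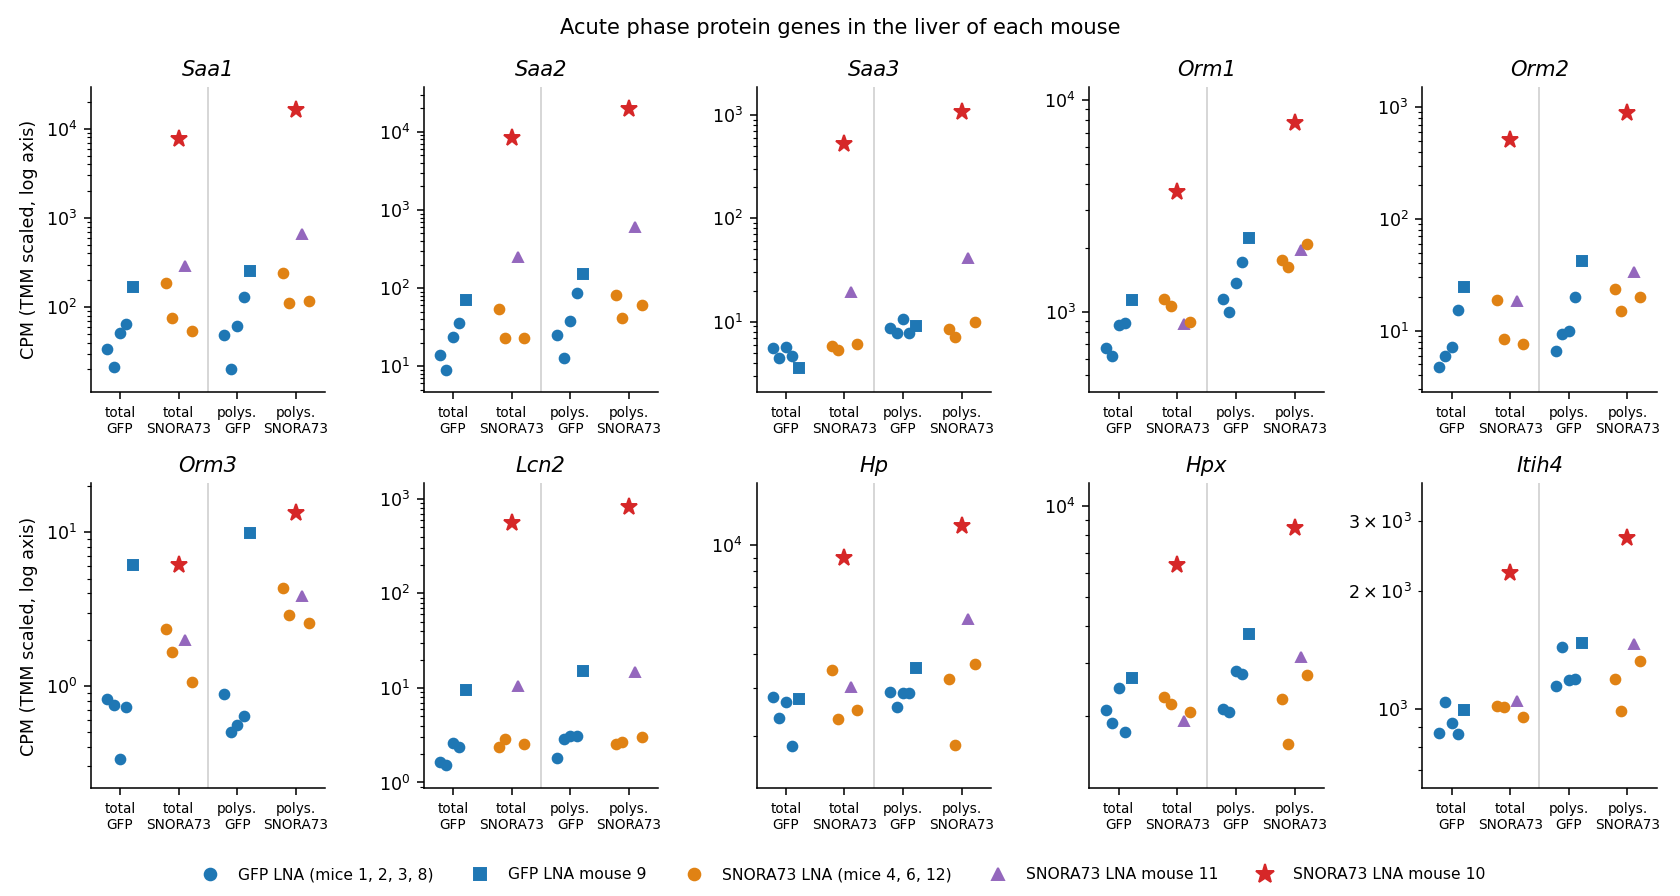
Level of the 10 acute phase protein genes in the liver of each mouse, in CPM scaled by TMM on a logarithmic axis, in total RNA (left of each panel) and polysome RNA (right) with GFP LNA or SNORA73 LNA. Each point is a mouse. Mouse 10 (red star) lies above every other mouse in all panels but that of Orm3 in total RNA, where GFP LNA mouse 9 (blue square) had 6.15 CPM and mouse 10 had 6.08 CPM.

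Saa1 and Saa2 encode the serum amyloid A proteins of plasma. In total RNA the level of Saa1 (ENSMUSG00000074115) was 33.6, 21.3, 50.9, 64.9 and 168 CPM in GFP LNA mice 1, 2, 3, 8 and 9 and 186, 76.0, 7697, 292 and 53.8 CPM in SNORA73 LNA mice 4, 6, 10, 11 and 12. In polysome RNA it was 48.2, 20.1, 61.4, 130.3 and 255 CPM with GFP LNA and 241, 112, 16078, 655 and 118 CPM with SNORA73 LNA. Mouse 10 stood 26.4-fold above mouse 11, the next highest, in total RNA, and the remaining 9 mice themselves spanned a 13.7-fold range with overlapping groups. Saa2 (ENSMUSG00000057465) had 13.8, 8.84, 23.5, 35.5 and 70.4 CPM in the GFP LNA mice and 53.8, 23.1, 8378, 249 and 22.8 CPM in the SNORA73 LNA mice in total RNA. Its level in polysome RNA was 25.0, 12.8, 38.1, 86.7 and 152 CPM with GFP LNA and 81.1, 41.5, 19526, 610.5 and 59.9 CPM with SNORA73 LNA. Mice 10, 11 and 9 were, in this order, the 3 highest for Saa2 in each RNA. Saa1 and Saa2 together took 1.42% of all counts of mouse 10 in total RNA and 3.18% in polysome RNA, against at most 0.0539% and 0.111% in any other mouse. The transcripts of Saa1 and Saa2 are alike enough that the split of reads between them is uncertain, whereas their sum is less so.

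Saa3, a serum amyloid A that macrophages and adipocytes also make, did not follow mouse 9. Saa3 (ENSMUSG00000040026) had 5.53, 4.44, 5.65, 4.69 and 3.58 CPM in the GFP LNA mice and 5.75, 5.25, 529, 19.5 and 6.12 CPM in the SNORA73 LNA mice in total RNA. In polysome RNA the values were 8.60, 7.77, 10.6, 7.82 and 9.17 CPM with GFP LNA and 8.57, 7.06, 1075, 41.7 and 9.81 CPM with SNORA73 LNA. Mice 10 and 11 were the highest in each RNA, and the other 8 mice lay between 3.58 and 6.12 CPM in total RNA. Mouse 9 had the lowest Saa3 of all mice in total RNA, although it was the highest GFP LNA mouse for Saa1 and Saa2.

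Lcn2 encodes lipocalin 2, which neutrophils store and which hepatocytes make in the acute phase. Lcn2 (ENSMUSG00000026822) had 1.66, 1.54, 2.60, 2.35 and 9.51 CPM in the GFP LNA mice and 2.39, 2.87, 557, 10.6 and 2.55 CPM in the SNORA73 LNA mice in total RNA. In polysome RNA these were 1.82, 2.86, 3.10, 3.07 and 15.1 CPM and 2.58, 2.71, 819, 14.6 and 3.00 CPM. Mouse 10 stood 219-fold over the median of the other mice in total RNA and 273-fold in polysome RNA, mice 9 and 11 came next, and the other 7 mice lay between 1.54 and 2.87 CPM in total RNA. The 10 neutrophil markers summed to 15.3 CPM in mouse 10 in total RNA, against 3.56 to 8.46 CPM with GFP LNA and 2.05 to 6.28 CPM in the other SNORA73 LNA mice. In polysome RNA the sum was 31.2 CPM in mouse 10, against 5.31 to 13.5 and 3.88 to 11.4 CPM. Of the 10 markers, 6 were highest in mouse 10 in total RNA and 5 in polysome RNA, as were 19.2% and 11.5% of all genes. In total RNA all 4 that passed the filter (S100a8, S100a9, Csf3r and Cxcr2) were among the 6. In polysome RNA 5 markers passed the filter, and 3 of these were highest in mouse 10. Ly6g and Camp, which define neutrophils, were at 0 in all total RNA libraries and had at most 5 counts in any polysome library, with Ly6g highest in mouse 10. The part of these cells in the level of Lcn2 was not tested.

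Orosomucoids, also called alpha-1-acid glycoproteins, stood over the other mice by unequal folds in mouse 10. Orm1 (ENSMUSG00000039196) had 674, 614, 860.2, 879 and 1139.7 CPM in the GFP LNA mice and 1143, 1062, 3653, 871 and 888 CPM in the SNORA73 LNA mice in total RNA, a level of mouse 10 of 4.16-fold over the median of the others. Orm2 (ENSMUSG00000061540) had 4.76, 6.01, 7.20, 15.3 and 24.5 CPM with GFP LNA and 18.7, 8.40, 512, 18.6 and 7.68 CPM with SNORA73 LNA, where mouse 10 stood 60.9-fold over the median of the others and mouse 9 came next. In polysome RNA, mouse 10 had 7763 CPM of Orm1, against 996 to 2236 CPM in the other mice, and 892 CPM of Orm2, against 6.65 to 41.9 CPM.

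Orm3 was the only gene of the 10 for which another mouse reached the level of mouse 10. Orm3 (ENSMUSG00000028359) had 0.828, 0.757, 0.337, 0.728 and 6.15 CPM in the GFP LNA mice and 2.34, 1.66, 6.08, 2.00 and 1.06 CPM in the SNORA73 LNA mice in total RNA. In polysome RNA it had 0.891, 0.4997, 0.554, 0.634 and 9.95 CPM with GFP LNA and 4.34, 2.90, 13.3, 3.88 and 2.56 CPM with SNORA73 LNA. GFP LNA mice 1, 2, 3 and 8 lay below every SNORA73 LNA mouse in each RNA, and mouse 9 lay far above them, at the level of mouse 10 in total RNA. These values rest on 11 to 31 counts per library in the 4 low GFP LNA mice, and reads may be shared with Orm1 and Orm2.

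The heme and hemoglobin scavengers differed less. Hp (ENSMUSG00000031722) had 2775, 2341, 2657, 1839 and 2746 CPM in the GFP LNA mice and 3505, 2311, 8989, 3034 and 2494 CPM in the SNORA73 LNA mice in total RNA. Hpx (ENSMUSG00000030895) had 2089, 1890.4, 2482, 1769 and 2665 CPM with GFP LNA and 2316, 2194, 6395, 1917 and 2051 CPM with SNORA73 LNA. In polysome RNA, mouse 10 had 11763 CPM of Hp against 1859 to 5384 CPM in the other mice, and 8447 CPM of Hpx against 1615 to 3735 CPM. For Hp and Hpx the 9 other mice lay within a 1.91-fold and a 1.51-fold range in total RNA, and mouse 10 was 2.56-fold and 2.40-fold above the next mouse.

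Itih4 (ENSMUSG00000021922) varied least. It had 867, 1043, 923, 865 and 994 CPM in the GFP LNA mice and 1020.0, 1013, 2219, 1048 and 955 CPM in the SNORA73 LNA mice in total RNA, so that the 9 other mice lay within a 1.21-fold range and mouse 10 was 2.12-fold above the next. In polysome RNA it had 2718 CPM in mouse 10 and 990.1 to 1474 CPM in the others. With scaling by library totals in place of TMM, the median gene of mouse 10 moved to −0.18 in total RNA and −0.19 in polysome RNA on the log2 scale relative to the other mice, and Itih4 in polysome RNA was 0.94 over their median on that scale, against 1.19 with TMM.

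Mouse 9 and mouse 11 showed smaller elevations, in part of the same genes. Of the GFP LNA mice, mouse 9 was highest for 7 of 10 genes in total RNA and, in polysome RNA, for 9 of 10, where 29.6% and 25% of all genes had their GFP LNA maximum in mouse 9. Mouse 11 was the highest of the 4 other SNORA73 LNA mice for 5 of 10 genes in total RNA, and polysome RNA gave 8 of 10, where 29.7% and 30.8% of all genes were highest in mouse 11 among these mice. Saa3 was raised in mouse 11 and not in mouse 9, Orm3 was highest of the GFP LNA mice in mouse 9, and Saa1, Saa2 and Lcn2 were raised in both. Mouse 4 was the highest of the 4 other SNORA73 LNA mice for Orm1, Orm2, Orm3, Hp and Hpx in total RNA. In polysome RNA it was so for Orm3 alone. Its Saa1 in total RNA, 186 CPM, was above the 168 CPM of mouse 9. Together the 10 genes held 3.44% of the total RNA counts and 6.17% of the polysome RNA counts of mouse 10, against 0.561% to 0.819% and 0.645% to 1.17% in the other mice.

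Markers of other liver cells were also read in mouse 10. The 8 Kupffer cell and macrophage markers summed to 239 CPM in total RNA, the highest of the 10 mice, against 139 to 223 CPM with GFP LNA and 128 to 171 CPM in the other SNORA73 LNA mice. Of these 8 markers, 4 were highest in mouse 10 in total RNA and 3 in polysome RNA, as were 19.2% and 11.5% of all genes. The summed hepatocyte markers were 38263 CPM, above the 35768 CPM of mouse 9 alone, and in polysome RNA they were lowest in mouse 10, at 41429 CPM. The 5 cholangiocyte markers summed to 54.6 CPM in total RNA against at most 37.4 CPM in any other mouse, but only 1 of the 5 was highest in mouse 10 in either RNA. Among the 3 that passed the filter in total RNA, the difference from the median of the other mice went down to −0.58 on the log2 scale. The monocyte, T, B and pan-leukocyte, endothelial, stellate and adipocyte sums of mouse 10 were not the highest in total RNA. The part of these cells in the levels of the acute phase genes was not tested.

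The question whether SNORA73 LNA itself changed these genes was put to the 9 mice without mouse 10. None of the 10 genes passed the thresholds of the study in either RNA, a log2 fold change of at least 0.5 for higher or under 0 for lower with an adjusted p under 0.05 from edgeR. In total RNA 0.00762% of all genes were called higher and 0% lower, and in polysome RNA 0.0309% and 0%. The serum amyloid A genes had the largest fold changes, 1.17 (standard error, SE, 0.60) for Saa1, 1.52 (SE 0.75) for Saa2 and 0.92 (SE 0.36) for Saa3 on the log2 scale in total RNA, with adjusted p = 0.575, 0.559 and 0.434 from edgeR. In polysome RNA they were 1.45 (SE 0.66), 1.65 (SE 0.82) and 0.93 (SE 0.44), with adjusted p = 0.371, 0.410 and 0.384 from edgeR. At an unadjusted p under 0.05, 1 of the 10 genes passed in total RNA, Saa3, and 1 in polysome RNA, Saa1. Among the 13127 genes tested in total RNA, 682 passed with a positive and 574 with a negative fold change. In polysome RNA 1134 and 606 of 12963 did. By DESeq2 0 of 10 were called in either RNA, where 0.358% of all genes were called higher and 0.221% lower in total RNA and 1.74% and 0.378% in polysome RNA. By limma-voom 0 of 10 were called as well, where 0.0305% and 0.0386% of all genes were called higher.

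The other 7 genes had log2 fold changes from −0.040 (Hpx) to 0.38 (Lcn2) in total RNA and from −0.13 (Hpx) to 0.46 (Orm3) in polysome RNA, with adjusted p of at least 0.551 from edgeR. The standard error was small for Itih4 (0.088), Hpx (0.13), Hp (0.15) and Orm1 (0.17) in total RNA and large for Orm3 (0.73) and Lcn2 (0.61), in which mouse 9 stood apart from its group. For 0 of the 10 genes were the groups free of overlap over the 9 mice, as they were for 3.53% of all genes in total RNA and 4.85% in polysome RNA. The 10 genes had a median log2 fold change of 0.23 in total RNA, and one of 0.36 among the polysome libraries, against 0.00086 and −0.0097 for all genes.

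The fold changes of the serum amyloid A genes were smaller without mouse 11. Without mice 10 and 11, Saa2 had a log2 fold change of 0.13 (SE 0.58) in total RNA and −0.054 (SE 0.62) in polysome RNA, and Saa3 had 0.25 (SE 0.16) and −0.058 (SE 0.19). Saa1 had 0.64 (SE 0.60) in place of 1.17 in total RNA and 0.61 (SE 0.62) in place of 1.45 in polysome RNA. Lcn2 turned to −0.41 (SE 0.56) in total RNA and −0.91 (SE 0.62) in polysome RNA without mice 10 and 11. It was 1.16 (SE 0.45) and 1.09 (SE 0.52) without mice 9 and 10.

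**Figure D2:**
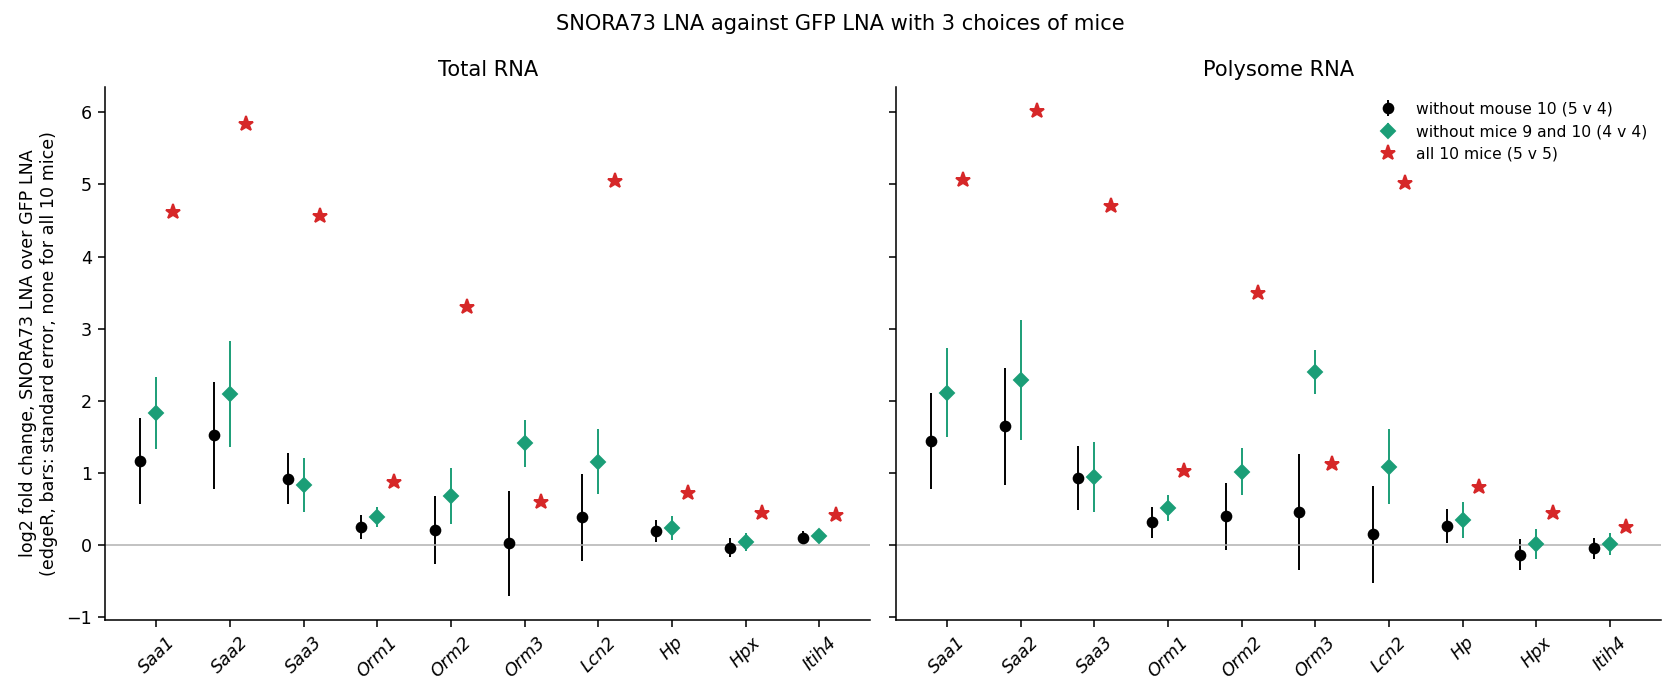
Log2 fold change of SNORA73 LNA over GFP LNA from edgeR for each gene, in total RNA (left) and polysome RNA (right), without mouse 10 (black circles), without mice 9 and 10 (green diamonds) and with all 10 mice (red stars). Bars are standard errors and are left out for all 10 mice, since mouse 10 chose the genes. With mouse 10 the fold changes of Saa1, Saa2, Saa3, Lcn2 and Orm2 exceed 3, and without mice 9 and 10 Orm3 in polysome RNA stands at 2.40.

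Without mice 9 and 10, the log2 fold changes moved up for every gene but Saa3 in total RNA, and for every gene in polysome RNA. Saa2 had 2.10 in total RNA and 2.28 in polysome RNA. In this fit 1 of the 10 genes was called, Orm3 in polysome RNA. Its polysome RNA gave a log2 fold change of 2.40 (SE 0.30, edgeR adjusted p = 0.00977), and its total RNA gave 1.41 (SE 0.33, edgeR adjusted p = 0.0941). In this fit 0.211% of all genes were called higher and 0.0312% lower in polysome RNA, and 0.553% and 0.161% in total RNA. Orm3 was also the only one of the 10 genes whose groups did not overlap over the 8 mice, in each RNA, where 7.36% of all genes in total RNA and 8.43% in polysome RNA had such groups. The call rests on leaving out mouse 9, which had 9.95 CPM of Orm3 in polysome RNA against at most 0.891 CPM in the other GFP LNA mice. With all 10 mice, a description only, the log2 fold changes were 4.62, 5.85, 4.56, 3.30 and 5.05 for Saa1, Saa2, Saa3, Orm2 and Lcn2 in total RNA and 5.06, 6.01, 4.70, 3.49 and 5.03 in polysome RNA, and for 0 of the 10 genes were the groups free of overlap, as they were for 1.81% and 3.2% of all genes.

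The second question was how these messages were recovered with polysomes, relative to total RNA of the same liver. Both RNAs were scaled together by TMM, so the ratio is relative to that of most genes. It does not give the share of a message that was on polysomes. The ratio of polysome to total RNA was above 1 in all 10 mice for Saa2, Saa3, Orm1 and Orm2, as it was for 20% of all genes. On the log2 scale the ratio of Orm1 was 0.75, 0.65, 0.59, 0.92 and 0.96 in GFP LNA mice 1, 2, 3, 8 and 9 and 0.58, 0.59, 1.07, 1.12 and 1.17 in SNORA73 LNA mice 4, 6, 10, 11 and 12. That of Saa2 was 0.86 ± 0.32 (SD, n = 5) with GFP LNA and 1.03 ± 0.33 (SD, n = 5) with SNORA73 LNA. The log2 ratios of Hp and Hpx were 0.23 ± 0.25 and 0.25 ± 0.27 with GFP LNA and 0.23 ± 0.46 and 0.18 ± 0.44 with SNORA73 LNA (SD, n = 5).

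In mouse 10, whose levels were many-fold higher, the ratio stayed inside the range of the other 9 mice for 10 of 10 genes, as it did for 85.3% of all genes. The ratio of Saa1 in mouse 10 was 1.04 on the log2 scale, against −0.13 to 1.12 in the others, and that of Lcn2 was 0.54, against −0.10 to 0.81. The levels of mouse 10 chose the genes, but its ratio of polysome to total RNA did not.

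**Figure D3:**
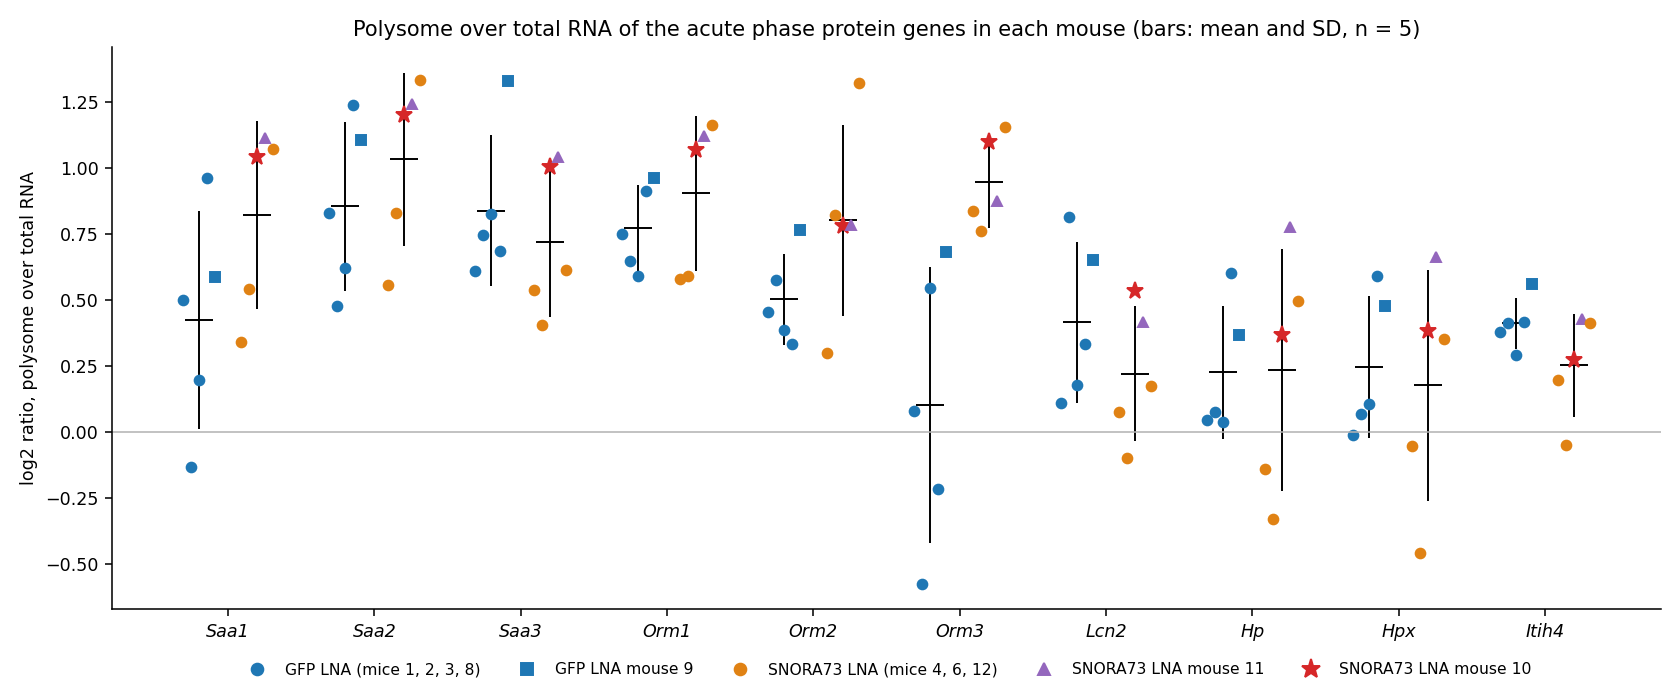
Log2 ratio of polysome to total RNA of each gene in each mouse, with GFP LNA (left of each pair) and SNORA73 LNA (right), where 0 is an even ratio of the levels scaled by TMM. Points are mice, and bars are the mean and SD of 5 mice. Mouse 10 (red star) lies within the spread of the other mice for every gene, and for Orm3 every SNORA73 LNA mouse lies above every GFP LNA mouse.

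Without pairing, 0 of the 10 genes were called by edgeR between polysome and total RNA in either group, at an adjusted p under 0.05 with no minimum fold, where 21.8% of all genes were called higher and 21% lower with GFP LNA, and 19.7% and 18.2% with SNORA73 LNA. At an unadjusted p under 0.05, 0 of the 10 passed with GFP LNA and 1, Orm1, with SNORA73 LNA. Among all 13795 genes tested, 3545 passed upward and 3348 downward with GFP LNA, and 3303 and 3097 with SNORA73 LNA. Total and polysome RNA came from the same mouse, and with the mouse as replicate block 7 of 10 genes rose with GFP LNA, where 28.9% of all genes were called higher and 27.2% lower, and 7 of 10 with SNORA73 LNA, where 26% were called higher and 25.1% lower. With the block, Saa2 rose on the log2 scale by 0.87 (SE 0.12, edgeR adjusted p = 3.47e-05) with GFP LNA and 1.04 (SE 0.12, edgeR adjusted p = 7.5e-06) with SNORA73 LNA. Orm1 rose by 0.77 (SE 0.097, edgeR adjusted p = 1.16e-05) and 0.91 (SE 0.098, edgeR adjusted p = 3.65e-06). Saa1, Saa3, Orm2 and Itih4 rose in both groups, by 0.43, 0.84, 0.51 and 0.41 with GFP LNA and by 0.82, 0.76, 0.80 and 0.25 with SNORA73 LNA. Lcn2 was called with GFP LNA alone and Orm3 with SNORA73 LNA alone, and Hp and Hpx in neither group, which does not show that these genes differ between the groups. Without mouse 10 the block gave 7 of 10 in each group as well, where 27.4% of all genes were called higher and 28% lower with GFP LNA, and 22.8% and 22.7% with SNORA73 LNA. Without mouse 10 and without the block, Orm1 and Itih4 were called with GFP LNA (background 21.8% higher and 22.6% lower) and Orm1 with SNORA73 LNA (17.5% and 16.8%). Without mice 9 and 10, Orm1 and Itih4 were again called with GFP LNA (18.9% and 20.3%), and Orm1 and Orm3 with SNORA73 LNA (18.2% and 18%).

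The change of this ratio with SNORA73 LNA, tested as an interaction term, was not called for any of the 10 genes, with or without the mouse as replicate block. In the unpaired edgeR fit 0% of all genes were called higher and 0.00725% lower, and 0 of the 10 genes had an unadjusted p under 0.05. With the block, 1 of the 10 passed, Orm3 (unadjusted p = 0.0135 from edgeR), where 692 of all 13795 genes passed upward and 416 downward. Orm3 had the largest change, 0.77 with the block (SE 0.27, edgeR adjusted p = 0.516). Its log2 ratio was −0.57 to 0.68 in the GFP LNA mice and 0.76 to 1.16 in the SNORA73 LNA mice, without overlap, as for 1.74% of all genes. For Saa1 the blocked change was 0.39 (SE 0.20, edgeR adjusted p = 0.633), and for Saa3 it was −0.080 (SE 0.16, edgeR adjusted p = 0.929).

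Other genes of the acute phase response were read from lists of liver proteins and of the signalling pathway. Of 30 other positive acute phase genes, 28 passed the filter. Mouse 10 lay above all other mice for 24 of them in total RNA and for 24 in polysome RNA. It did so for 19.2% of all genes in total RNA and 11.5% in polysome RNA. For 18 of these 24 in each RNA the difference from the median was also at least 1 on the log2 scale. Both held for 2.8% of all genes in total RNA and 2.66% in polysome RNA. The metallothioneins, which bind zinc and copper, differed most, Mt2 at 889 CPM against 1.48 to 129.6 CPM in the other mice and Mt1 at 961 CPM against 3.82 to 174 CPM in total RNA. Steap4, a metalloreductase, had 1110 CPM against 39.7 to 133 CPM, and Il1rn, the interleukin 1 receptor antagonist, had 19.8 CPM against 1.05 to 8.46 CPM. Hamp2, a hepcidin gene whose reads may be shared with Hamp, went the other way, at 2.92 CPM against 4.35 to 21.1 CPM. Ftl1, a ferritin chain, was also lowest in mouse 10 in total RNA, at 1917 CPM against 2101 to 2970 CPM.

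Mouse 10 lay below all other mice for 5 of the 20 genes listed as negative acute phase genes in total RNA. It did so for 4 in polysome RNA, against 19% of all genes in total RNA and 14.1% in polysome RNA. The list also held Serpina1a to Serpina1e, and whether these fall in the acute phase of the mouse was not checked. Serpina6, the corticosteroid-binding globulin, had 52.6 CPM in mouse 10 against 73.3 to 128 CPM in total RNA, and 55.6 against 83.3 to 144 CPM in polysome RNA. Transthyretin (Ttr) had 3910 CPM in mouse 10, inside the range of 3788 to 7558 CPM. Serpina1b was lowest in mouse 10, at 3623 CPM against 3650 to 5347 CPM, while Serpina1e was highest, at 9571 CPM against 1826 to 8046 CPM, and reads may be shared within this gene family. None of these lists had a gene called between SNORA73 LNA and GFP LNA in either RNA, over the 9 mice or the 8 mice.

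**Figure D4:**
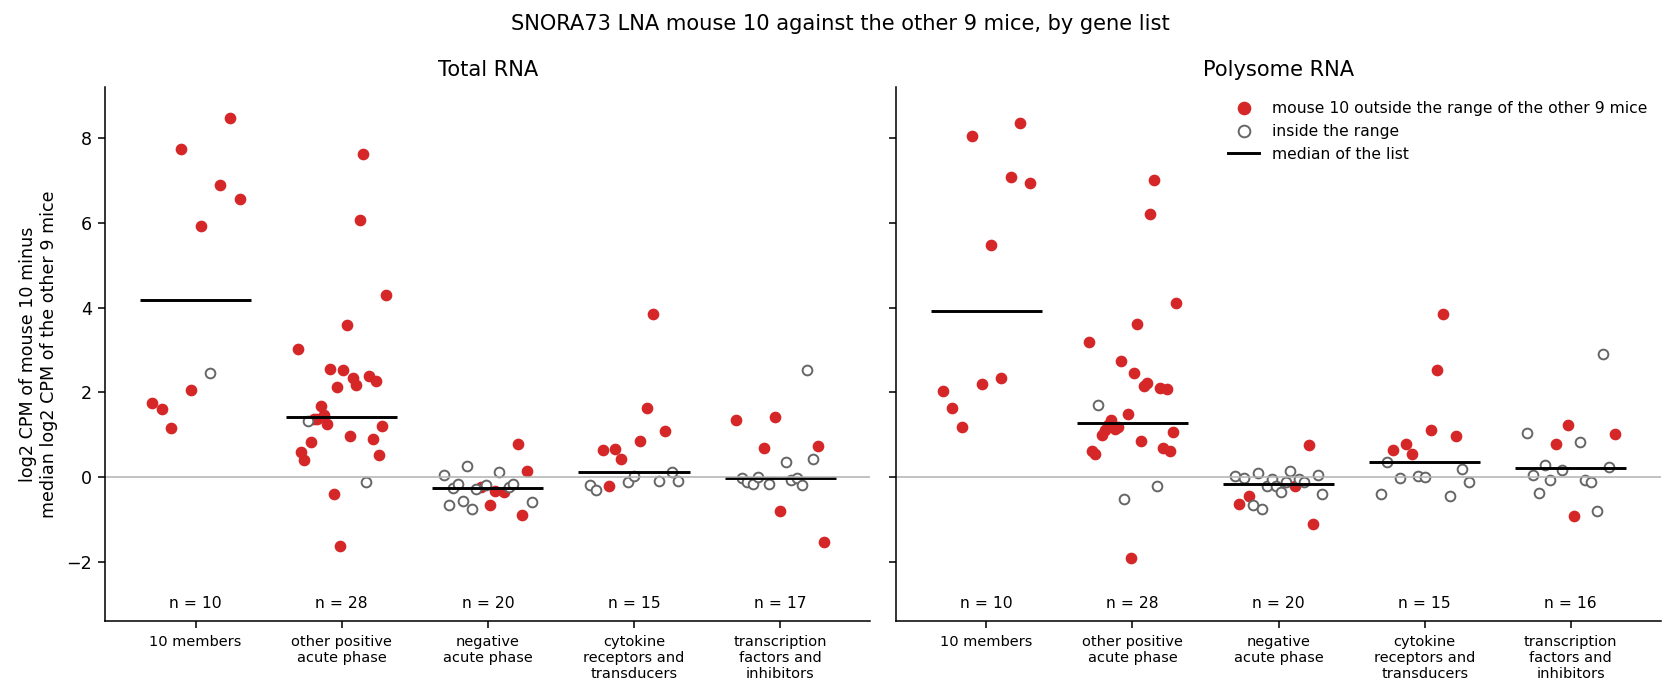
Log2 CPM of mouse 10 minus the median log2 CPM of the other 9 mice for each gene that passed the filter, by list, in total RNA (left) and polysome RNA (right). Filled points mark genes for which mouse 10 lay outside the range of the other mice, open points genes inside it, and lines the median of a list. The other positive acute phase genes lie mostly above 0, with a median of 1.41 in total RNA and 1.28 in polysome RNA. Those listed as negative spread from −0.89 (Serpina6) to 0.78 (Serpina1e) in total RNA.

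Of the 12 cytokine ligands, 4 passed the filter. Mouse 10 was highest for 1 of these in total RNA and for 0 in polysome RNA, as it was for 19.2% and 11.5% of all genes. The 1 in total RNA was Cxcl1, a chemokine for neutrophils, with 43.9 CPM against 3.61 to 29.7 CPM. In polysome RNA Cxcl1 lay inside the range, with 14.5 against 1.86 to 22.2 CPM. Il6 and Il22 had at most 3 and 0 counts in any library, and these 3 ligands were chosen after their values were seen. Of the 15 receptors and signal transducers, 7 were highest in mouse 10 in each RNA, as were 19.2% and 11.5% of all genes. Tlr2, a receptor for bacterial lipoproteins, had 20.9 CPM in mouse 10 against 0.806 to 5.13 CPM, and Osmr, the oncostatin M receptor, had 5.18 against 1.27 to 1.99 CPM in total RNA. The TNF receptor gene Tnfrsf1a had 79.0 against 29.2 to 48.5 CPM, the adaptor gene Myd88 had 17.8 against 8.62 to 13.02 CPM, and Il6st, which encodes gp130, had 91.1 against 52.6 to 63.6 CPM.

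Of the 18 transcription factors and feedback inhibitors, 17 passed in total RNA, and mouse 10 was highest for 4 and lowest for 2, where it was highest for 19.2% and lowest for 19% of all genes. Stat3, the factor that IL-6 signalling activates, had 106 CPM against 43.9 to 101 CPM, and Nfkb2 had 5.43 against 1.42 to 4.70 CPM. The hepatocyte factor Hnf4a had 455 against 221 to 378 CPM, and Nfkbia, the inhibitor of NF-kB, was lowest at 43.8 CPM against 56.8 to 124 CPM. Cebpb, a C/EBP factor, had 41.7 CPM in mouse 10, inside the range of 28.3 to 66.7 CPM.

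Between polysome and total RNA these lists gave calls in each direction in the unpaired fit. With GFP LNA, 3 of 28 other positive acute phase genes were higher in polysome RNA and 3 lower, and of the 15 receptors and transducers 0 were higher and 6 lower, where 21.8% of all genes were called higher and 21% lower. With the mouse as block these counts were 10 and 7 for the positive acute phase genes and 3 and 7 for the receptors and transducers, where 28.9% of all genes were called higher and 27.2% lower. C-reactive protein (Crp) fell by 1.06 on the log2 scale (edgeR adjusted p = 0.00492), whereas complement C3 rose by 0.55 (edgeR adjusted p = 0.00681). Among the kinases and receptors, Jak2 fell by 1.58 and Jak1 by 0.60, and Cebpb rose by 0.99, each with GFP LNA. Transthyretin, a negative acute phase protein, rose by 0.88 with GFP LNA and by 0.86 with SNORA73 LNA.

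The genes whose pattern over the 20 libraries was most like the median of the 10 genes were found by the root mean square difference of log2 CPM, each gene set to its mean in the GFP LNA libraries of the same RNA. Among 12736 genes with a median difference of 1.54, the 5 nearest outside the list were Gm7694 (0.375), Scara5 (0.573), Steap4 (0.638), Fgl1 (0.680) and Atp11a (0.702). Steap4 and Fgl1, a fibrinogen-like protein of hepatocytes, are also on the list of other positive acute phase genes, Scara5 encodes a ferritin receptor, and Gm7694 is a predicted gene. Of the 10 genes themselves, Orm2 (0.620) and Orm1 (0.761) lay nearest to the median pattern, and Saa2 (1.63) lay farthest.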

How the data were processed

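Total and polysome RNA of 10 livers were sequenced, and the authors trimmed reads, removed ribosomal RNA, quantified transcripts with kallisto 0.46.2 against Ensembl 102 and summed them to genes. The deposited values are these estimated counts per gene for each of 20 libraries, not normalized, and they were rounded to whole numbers here. Groups were taken from the labels. Genes over 0.5 CPM in at least 4 libraries were kept, scaled by TMM and tested by edgeR 4.0.16 (R 4.3.3, quasi-likelihood F-test) with Benjamini-Hochberg adjustment over all genes kept. The 2 RNAs were fitted apart for the LNA contrast, without mouse 10, and together for polysome against total RNA and the interaction. In the LNA contrast genes were called higher from 0.5 upward on the log2 scale and lower under 0, each with an adjusted p under 0.05, and in the other comparisons at an adjusted p under 0.05 with no minimum fold. Levels on the log2 scale are log2 CPM with a prior count of 2. Alternatives were limma 3.58.1 (voom), DESeq2 1.42.0, other scalings and filters, each mouse left out, all 10 mice, no mice 9 and 10, and the mouse as block. The blocked fit without mouse 10 was chosen after seeing the data. Same-numbered libraries were taken to come from the same animal, and their deviations from the group means correlated by 0.126 to 0.579 in the 10 mice. Total RNA matched the polysome library of the same number best within its group in every mouse but mouse 6 (0.126). For mouse 6 the values do not bear out the pairing, on which the block and the ratios per mouse rest. Tests were checked on simulated data with the same spread for every gene and no mouse that stood apart. That check does not cover the spread seen in these genes.

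The genes, the gene lists, markers and motifs were chosen with earlier results of these data known. Beyond the 10 genes, genes were named if called in a test, or if among the 4 of a list with the largest difference of mouse 10 in total RNA while outside the range of the other mice in both RNAs, and the 5 genes most like the median pattern were named. A gene that this rule names is not reported here. Reads of near-identical genes (Saa1 and Saa2, the orosomucoids, Hamp and Hamp2, the Serpina1 family) may be split wrongly by the estimate. Promoter windows are from RefSeq (GRCm38.p6) and were searched on both strands with Biopython 1.88. Depth was 14852951 to 42023390 counts per library.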

Additional observations from a re-analysis of the deposited data

Results flagged for a closer look

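Within a group of 5 mice, a gap between the highest mouse and the next that took an unusually large share of the whole range was found in 11 of 60 groups examined, which held log2 CPM or the log2 ratio of polysome to total RNA, and all 11 were of log2 CPM. Chance gives such a gap in about 1 in 20 groups, but 8 of the 11 concern mouse 10, whose levels chose the genes, so nothing is read from the count. In total RNA, mouse 10 stood apart from the other SNORA73 LNA mice with a gap of 0.717 of the range for Saa3, 0.811 for Orm1, 0.789 for Orm2, 0.73 for Lcn2, 0.843 for Hpx and 0.889 for Itih4. In polysome RNA its gap was 0.841 of the range for Orm1 and 0.806 for Orm2. GFP LNA mouse 9 stood above its group with a gap of 0.82 of the range for Orm3 in polysome RNA, and of 0.715 in total RNA and 0.751 in polysome RNA for Lcn2. Saa1 and Saa2 of mouse 10 did not show such a gap, and mouse 11 was the next highest mouse for both.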

How the results depend on the processing

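The limits are the 5 mice per group, the spread of mice 9, 10 and 11, and the low counts of Orm3. With the mouse as replicate block, 7 of the 10 genes were called between polysome and total RNA in each group, as without mouse 10 with the block, against 0 in the unpaired fit; the block changed no other count of the 10 genes. Unpaired, 2 were called with GFP LNA and 1 with SNORA73 LNA without mouse 10, and 2 and 2 without mice 9 and 10. In the LNA contrast of polysome RNA, 1 was called without mice 9 and 10, and from 0 to 1 with each mouse left out.

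Some small values changed sign, and the cause was not tested. With all 10 mice the LNA log2 fold change of Hpx in total RNA was 0.45, and polysome values were 0.44 for Hpx and 0.26 for Itih4. Without mice 9 and 10 they were 0.043, 0.015 and 0.010, and the polysome change of Orm3 with GFP LNA was −0.083. With library totals, Orm3 (−0.089) and Itih4 (−0.014) in total RNA and Lcn2 (−0.016) in polysome RNA fell below 0. The interaction of Saa3 was −0.080 with the block, −0.026 by limma and −0.16 with the block and no mouse 10. That of Hp was −0.0047 by limma and −0.013 with the block and no mouse 10. That of Lcn2 was 0.019 by limma, 0.0044 by DESeq2, 0.014 with library totals and 0.031 without a filter. That of Hpx was 0.0046 by DESeq2 and with its size factors, and 0.0066 without a filter.

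With each mouse left out, the LNA value in total RNA ran from −0.26 to 1.41 for Orm3, −0.11 to 0.043 for Hpx and −0.41 to 1.16 for Lcn2. In polysome RNA it ran from −0.91 to 1.09 for Lcn2, −0.29 to 0.018 for Hpx, −0.14 to 0.047 for Itih4, −0.054 to 2.28 for Saa2, −0.058 to 1.18 for Saa3 and −0.018 to 0.47 for Hp. The polysome change of Orm3 with GFP LNA ran from −0.059 to 0.57, and the interaction from −0.065 to 0.17 for Lcn2, −0.077 to 0.091 for Hpx and −0.00091 to 0.18 for Hp.

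Over all genes, the LNA contrast called 1 higher and 0 lower in total RNA, against 47 and 29 by DESeq2, 28 and 14 without a filter, 4 and 0 by limma or with all 10 mice, and 72 and 21 without mice 9 and 10. In polysome RNA it called 4 and 0, against 226 and 49 by DESeq2, 104 and 16 without a filter, 212 and 54 in a fit of all 18 libraries, 27 and 4 without mice 9 and 10, and 2 and 0 with library totals or all 10 mice. Total RNA gave 2 and 0 with CPM over 1 in every library or in the fit of 18. The interaction called 0 and 1, against 1 and 0 with the block and 5 and 2 by DESeq2.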

Other observations

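Between polysome and total RNA, further genes of the acute phase lists were called in the unpaired edgeR fit, and log2 fold changes are given for GFP LNA and then SNORA73 LNA. Among other positive acute phase genes, complement C4b had 0.52 and 0.43 and the hepcidin gene Hamp2 had 1.84 and 1.66, while the ferritin chain Ftl1 had −0.49 and −0.69. Pigr, the receptor that carries immunoglobulin A into bile, was called with GFP LNA at −0.46. Among negative acute phase genes, the retinol carrier Rbp4 had 0.45 and 0.41 and Igfals, which holds IGF1 in plasma, had 0.53 and 0.45, whereas Cyp7a1, the rate-limiting enzyme of bile acid synthesis, had −1.30 and −1.15. Igf1 (−0.36) and coagulation factor F12 (0.43) were called with GFP LNA.

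In the unpaired fit all calls among the receptors, transducers and ligands were lower in polysome RNA. With the mouse as block, Tnfrsf1a (0.48), Tlr2 (0.70) and Tyk2 (0.26) were higher with GFP LNA, and Il6ra (0.45) and Tnfrsf1a (0.27) with SNORA73 LNA. The values that follow are from the unpaired fit. Il1a had −1.25 and −1.33 and its receptor chain gene Il1rap had −0.81 and −0.80. Il6st (−0.38), Osmr (−1.44) and the kinase gene Irak1 (−0.28) were called with GFP LNA, and Tlr4 (−1.70) with SNORA73 LNA. Among the transcription factors, the glucocorticoid receptor gene Nr3c1 had −1.11 and −0.94, and Rela (0.31) and Nfkbiz (−1.25) were called with GFP LNA. A call in 1 group alone does not show a difference between the groups, which the interaction tests and for which 0 genes of these lists were called.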
